A study of Arabidopsis thaliana with 4 samples.

Results

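The genes described here are the 9143 Arabidopsis thaliana genes with estimated mRNA counts in all 4 inflorescence libraries of the study, out of 13311 genes with flower counts in any of its gene tables. They were chosen by table: 8961 genes stood in both of the authors' flower against seedling tables, and 414 stood on the authors' list of genes that differ between ndx1-4 and Col-0 flowers, with 232 genes in both. Both genotypes were in the Col-0 background and were sampled as inflorescences of 5-week-old plants. Col-0 is the wild-type accession, and ndx1-4, a single mutant allele, carries the T-DNA insertion WiscDsLox344A04 in NDX. Each genotype had 2 libraries, described by the study as independent biological replicates, and each library held RNA pooled from 5 inflorescences of different plants grown side by side. Nothing further separates the cultures, so p-values measure the spread between these libraries.

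NDX (NODULIN HOMEOBOX) encodes a plant-specific homeodomain protein. It is known as a repressor of the antisense transcripts of the flowering repressor gene FLC, as a partner of the Polycomb ring finger proteins RING1A and RING1B, and as a factor in heterochromatic small RNA pathways. An inflorescence holds meristems, buds of all stages, open flowers, pollen and young ovules, so its RNA carries programmes of organ identity, pigment and defence compound synthesis, and gamete formation side by side.

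The tested genes were not a random sample of the genome. A gene entered the test through a difference between flowers and seedlings in both genotypes, and 7981 of them passed a filter of 10 counts on average. The 182 genes held only through the genotype list had been selected by the authors on the very contrast described here, so their values are given as a description with no test. Summed over the genes joined, Col-0 had 9145282 and 10783572 estimated counts and ndx1-4 had 10809934 and 11979153. Counts below are normalised, that is, divided by the library scaling recovered from the authors' FPKM values and set to the mean depth, and every log2 difference is ndx1-4 minus Col-0. Floral identity genes were present in all libraries (AP3, a petal and stamen identity gene, at 945 and 1101 counts in Col-0 against 954 and 941 in ndx1-4). The 7 seed markers joined summed to between 3 and 9 counts a library.

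NDX itself (AT4G03090, chromosome 4, 1366053 to 1371557, minus strand, TAIR10) stood at 498 and 505 counts in Col-0 against 76 and 95 in ndx1-4, a log2 difference of -2.55 ± 0.17 (SE, n = 2 and 2). The libraries did not overlap, and the order matched the labels. NDX was among the genes held only through the genotype list.

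The upstream stretches of 4 genes are shown first. They form 2 pairs, BAN and DFR of flavonoid synthesis and the tandem flowering repressor genes MAF4 and MAF5. Only BAN was tested and called. DFR, MAF4 and MAF5 were held only through the genotype list, which fixed their separation. Each run is the 150 bases before the annotated start, 5′ to 3′ on the gene's strand, read from the RefSeq assembly TAIR10.1, whose nuclear gene coordinates equalled those of the deposited tables for 9070 of 9070 genes. For BAN (chr1:22792804-22792953, minus strand) and DFR (chr5:17166033-17166182, minus strand) the capitals mark the G-box CACGTG. For MAF4 (chr5:25992043-25992192, plus strand) and MAF5 (chr5:25997354-25997503, plus strand) they mark the abscisic acid response element core ACGTG, which also lies inside every G-box.
BAN: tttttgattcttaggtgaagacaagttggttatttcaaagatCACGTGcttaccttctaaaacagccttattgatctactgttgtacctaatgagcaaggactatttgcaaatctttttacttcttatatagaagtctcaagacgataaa
DFR: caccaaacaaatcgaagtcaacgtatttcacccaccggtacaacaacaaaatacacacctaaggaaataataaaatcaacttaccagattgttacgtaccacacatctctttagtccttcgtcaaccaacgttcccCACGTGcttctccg
MAF4: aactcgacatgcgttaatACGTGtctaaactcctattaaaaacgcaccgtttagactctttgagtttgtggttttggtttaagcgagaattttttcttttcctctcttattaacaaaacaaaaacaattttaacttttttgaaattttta
MAF5: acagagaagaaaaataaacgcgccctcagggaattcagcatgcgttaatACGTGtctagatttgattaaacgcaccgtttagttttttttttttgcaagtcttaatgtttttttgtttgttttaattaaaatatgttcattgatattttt
Motifs were searched on both strands in the 250 bases before each start, and no other annotated gene overlapped the printed runs. A G-box stood in 4 of the 15 flavonoid genes joined, in 7.46% of 8909 joined protein-coding genes and in 6.49% of 27443 protein-coding genes. It was not particular to flavonoid genes, as it also stood in 6 of 21 circadian clock genes. The core ACGTG stood in 22.9% of all protein-coding genes. The MAF4 and MAF5 runs shared an identical stretch of 20 bases that holds the core (catgcgttaatACGTGtcta). The 4 runs were chosen after the values and matches were seen, and the matches are a description only.

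Across the 7981 genes, edgeR's quasi-likelihood test with Benjamini-Hochberg adjustment called 23 genes higher in ndx1-4 (0.288%) and 7 lower (0.0877%) at an adjusted p below 0.05. All 30 called genes kept their libraries apart, while 27.9% of all tested genes stood above and 25.6% below both Col-0 libraries. All 30 also stood on the authors' list, which was drawn from these same libraries. Neither is support separate from the calls. With single libraries left out the calls were fewer: without ndx1-4 replicate 1 or without ndx1-4 replicate 2 no gene passed (995 and 1167 genes then had an unadjusted p below 0.05), and without Col-0 replicate 1 or Col-0 replicate 2 the count was 14 and 10. The median log2 difference of all tested genes was 0.01.

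Among the called genes that were higher, 3 of those with the largest differences were at low counts in Col-0. AT1G75945, an uncharacterized gene, rose from 1.2 and 5.8 counts to 280 and 377 (log2 difference 6.44 ± 0.48 SE, edgeR adjusted p = 0.027). AT1G04660, which encodes a glycine-rich protein, rose from 37 and 40 counts to 995 and 679, with an edgeR adjusted p of 0.0114. AT1G27580 (chromosome 1, 9589807 to 9591075, minus strand), an F-box gene of the DUF295 group, rose from 30 and 23 counts to 526 and 534. Each of these 3 genes was at least 280 counts in both ndx1-4 libraries and at most 40 in both Col-0 libraries.

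COW1 (AT4G34580), which encodes a Sec14-type phosphatidylinositol transfer protein needed for root hair growth, rose from 25 and 17 counts to 223 and 171. The cystatin-related gene AT5G17090 rose from 229 and 193 counts to 1558 and 1768 (log2 difference 2.98 ± 0.13 SE, edgeR adjusted p = 0.0049). AT2G42040, annotated as a WRC protein, rose from 336 and 372 counts to 1894 and 1879. GRP3S (AT2G05380), a small glycine-rich protein, rose from 1934 and 2096 counts to 8385 and 8885, with an edgeR adjusted p of 0.0049, and the glycine-rich gene AT2G05540, also on chromosome 2, rose from 2858 and 2856 counts to 7384 and 7315.

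Further genes called higher had known biochemical roles. HIS1-3 (AT2G18050), a linker histone known for induction by drought, rose from 181 and 214 counts to 888 and 697. G6PD4 (AT1G09420), of the glucose-6-phosphate dehydrogenase family that opens the oxidative pentose phosphate pathway, rose from 270 and 262 counts to 1075 and 1028. AHA4 (AT3G47950), a plasma membrane proton pump, rose from 335 and 385 counts to 1334 and 1357. The libraries of the 2 genotypes lay well apart for all 3 genes. CAT2 (AT4G35090), a catalase, rose from 2116 and 1878 counts to 4291 and 4130. FDM2 (AT4G00380), a factor of RNA-directed DNA methylation, rose from 979 and 896 counts to 1986 and 2278 (log2 difference 1.19 ± 0.10 SE, edgeR adjusted p = 0.0368).

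The remaining called genes were of mixed annotation. The cyclin gene CYCB1;5 (AT1G34460) rose from 243 and 270 counts to 701 and 744, and the actin-related gene AT2G42170 rose from 284 and 275 to 736 and 645. MLP43, of the major latex protein group, rose from 175 and 163 counts to 520 and 479. AT1G54740, AT1G60730, AT2G13550, AT2G35810, AT3G11160, AT4G22390 and EDA8 also rose, AT2G35810 from 249 and 226 counts to 559 and 559 and AT3G11160 from 25 and 24 to 141 and 194.

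Of the 7 genes that fell, BAN (AT1G61720, chromosome 1, 22790966 to 22792803, minus strand), which encodes anthocyanidin reductase, dropped from 311 and 508 counts to 50 and 48 (log2 difference -3.07 ± 0.30 SE, edgeR adjusted p = 0.045). AT4G15750, an inhibitor of invertase or pectin methylesterase by annotation, fell from 620 and 1053 counts to 103 and 107. TPS21 (AT5G23960), a sesquiterpene synthase of flowers, fell from 482 and 585 counts to 96 and 124. The ndx1-4 libraries of these 3 genes lay close together. JAL23 (AT2G39330), a jacalin-related lectin, fell from 1415 and 1117 counts to 451 and 455, and the sugar transporter gene STP12 (AT4G21480) fell from 685 and 712 counts to 331 and 344. The filaggrin-like gene AT1G64370 and the GDSL lipase gene AT1G54020 made up the rest, with log2 differences of -1.46 and -0.88.

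**Figure D1:**
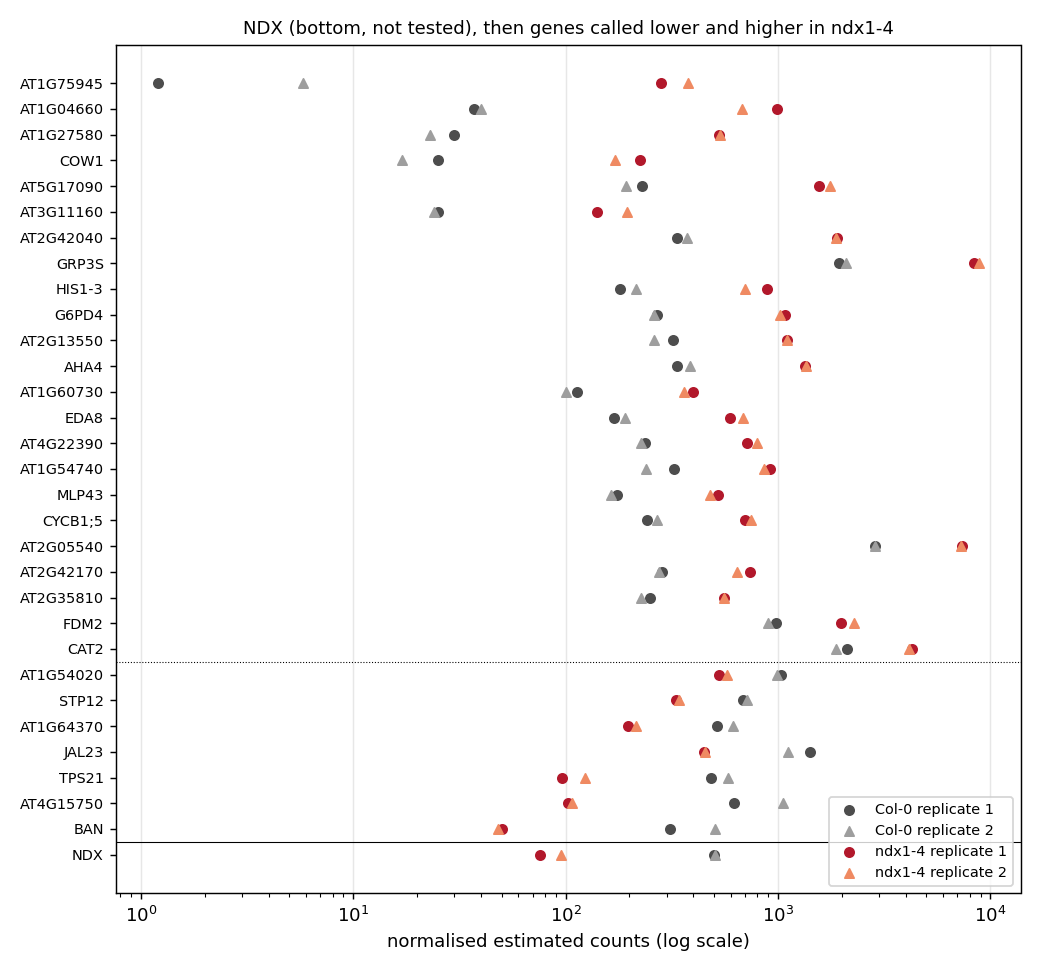
Normalised estimated counts (log scale) of NDX and the 30 called genes in each library, circles for replicate 1 and triangles for replicate 2. Every gene shows the 2 ndx1-4 libraries on one side of the 2 Col-0 libraries, with AT1G75945 at 280 and 377 counts in ndx1-4 at the top and BAN at 50 and 48 near the bottom.

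The genes of anthocyanin and flavonoid synthesis were examined next, ordered from the regulators to the last enzymes. Of 11 tested genes of the list 1 was called lower (BAN) and none higher, against 0.0877% and 0.288% of all tested genes. The median log2 difference was -0.44. Below both Col-0 libraries stood 8 of the 11, while 25.6% of all tested genes did so. DESeq2 called 2 of them lower (1.89% of all tested genes), and at an unadjusted edgeR p below 0.05 there were 6 lower and 1 higher (8.68% and 10.6% of all). The regulator TT8 stood at 112 and 120 counts in Col-0 against 66 and 66 in ndx1-4, and MYB12, a regulator of flavonols, at 117 and 107 against 70 and 59.

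Of the late genes, 4 were held only through the genotype list, which fixed their separation. DFR (AT5G42800), which encodes dihydroflavonol reductase, stood at 131 and 247 counts in Col-0 against 21 and 25 in ndx1-4. ANS (AT4G22880), anthocyanidin synthase, stood at 177 and 261 against 14 and 34. Both genes belong to these 4 and carry no test. TT12 (AT3G59030), the vacuolar transporter of proanthocyanidin precursors, stood at 126 and 166 counts against 35 and 40, with an edgeR adjusted p of 0.0777. GSTF12 (AT5G17220) and AHA10 (AT1G17260), a glutathione transferase and a proton pump of the same branch, had log2 differences of -2.05 and -1.77 and no test. Col-0 replicate 2 held the highest count of each of these genes. The repressor MYBL2 lay the other way, at 774 and 734 counts in Col-0 against 982 and 1099 in ndx1-4 (edgeR adjusted p = 0.125). As in any bulk sample, fewer cells of a type and less RNA per cell cannot be told apart, which applies to all groups here.

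**Figure D2:**
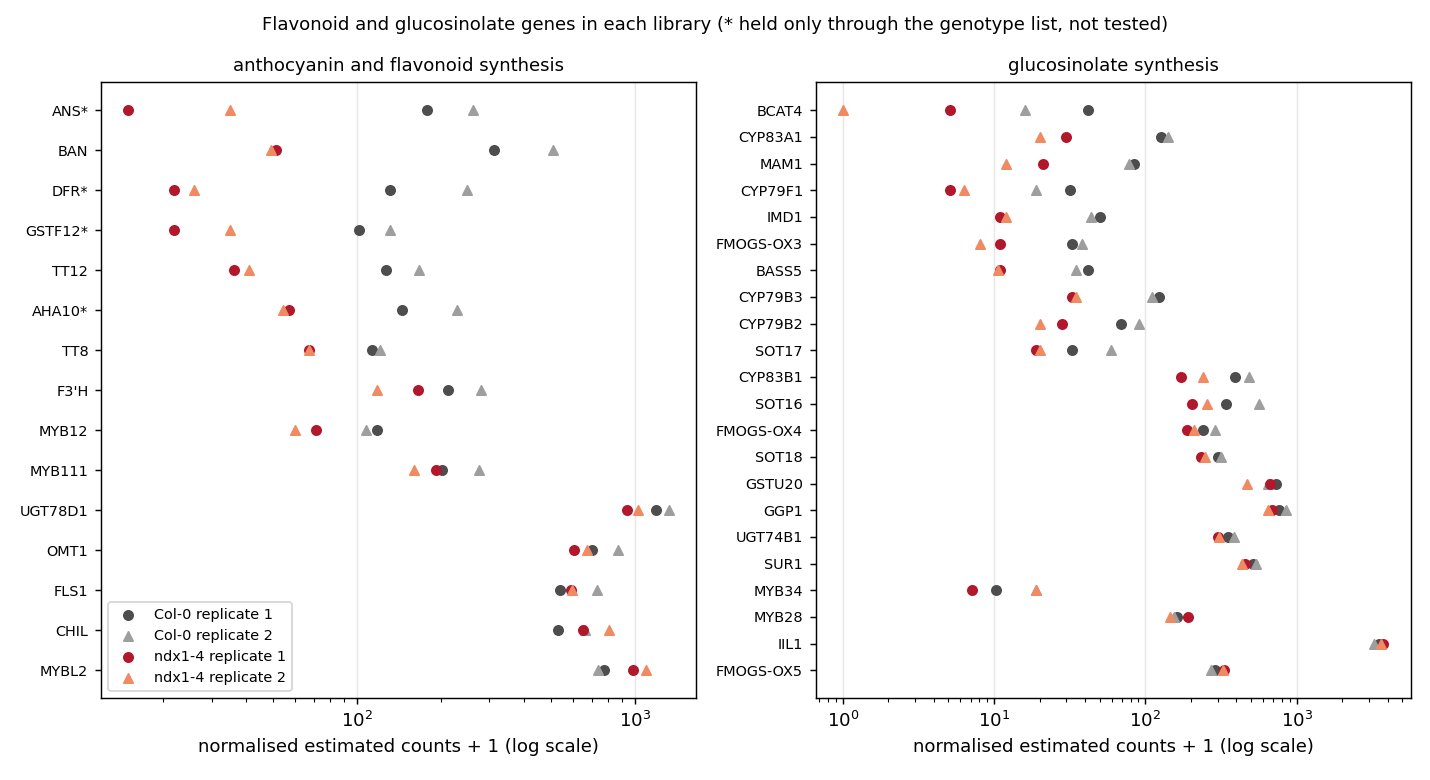
Normalised estimated counts plus 1 (log scale) of flavonoid (left) and glucosinolate (right) genes in each library, with stars for genes held only through the genotype list. ANS, BAN and DFR lie apart by genotype, and CYP83A1 stands at 125 and 141 counts in Col-0 against 29 and 19 in ndx1-4.

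Glucosinolates are the sulfur-rich defence compounds of the Brassicaceae, made from methionine or tryptophan and cleaved by myrosinases. Of 22 tested synthesis genes edgeR called 0, while DESeq2 called 7 lower (1.89% of all tested genes) and 0 higher, and at an unadjusted edgeR p below 0.05 there were 15 lower (8.68% of all) and 0 higher. Below both Col-0 libraries stood 17 of the 22 (25.6% of all), and the median log2 difference was -1.03. CYP83A1 (AT4G13770), a core enzyme of the aliphatic branch, stood at 125 and 141 counts in Col-0 against 29 and 19 in ndx1-4 (log2 difference -2.49 ± 0.31 SE, edgeR adjusted p = 0.0751). MAM1 (AT5G23010), which extends the methionine chain, stood at 83 and 77 counts against 20 and 11.

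In the indolic branch CYP79B3, which converts tryptophan, stood at 122 and 110 counts against 32 and 34, and CYP79B2 at 68 and 90 against 27 and 19. The genes with the most counts in the list lay near equality. IIL1, of methionine chain extension, stood at 3525 and 3262 counts in Col-0 against 3750 and 3587 in ndx1-4, above both Col-0 libraries. GGP1 stood at 766 and 849 against 683 and 643, below both. MYB28, a regulator of the aliphatic branch, overlapped between genotypes. CYP79F1, which converts chain-extended methionine, was at low counts, 31 and 18 in Col-0 against 4.1 and 5.3 in ndx1-4.

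The myrosinase system was split. Of 17 tested genes JAL23 was called lower and none higher, DESeq2 called 2 higher and 2 lower, and at an unadjusted edgeR p below 0.05 there were 2 higher and 5 lower (10.6% and 8.68% of all tested genes). Of all tested genes edgeR called 0.288% higher and 0.0877% lower, and DESeq2 2.23% higher and 1.89% lower. The ER body enzyme gene BGLU18 (AT1G52400) stood at 42331 and 40193 counts in Col-0 against 21039 and 22036 in ndx1-4 (edgeR adjusted p = 0.0704). The myrosinase gene TGG1 (AT5G26000) lay the other way, at 42928 and 42596 against 82595 and 69780 (edgeR adjusted p = 0.113). TGG2, its close neighbour, stood at 68290 and 68915 counts against 122691 and 97691, and the counting can split reads between such copies.

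Jasmonate controls defence and stamen maturation, and its JAZ repressors are transcribed in response to it. Of 21 tested genes edgeR called 0, DESeq2 called 5 lower and 1 higher (1.89% and 2.23% of all tested genes), and at an unadjusted edgeR p below 0.05 there were 10 lower and 1 higher (8.68% and 10.6% of all). Below both Col-0 libraries stood 15 of the 21, against 25.6% of all. The most abundant members were VSP1, at 18474 and 22803 counts in Col-0 against 14368 and 13757 in ndx1-4, and VSP2, at 14836 and 16006 against 10196 and 11948, both storage proteins and markers of jasmonate response. LOX2 (AT3G45140), an early synthesis enzyme, stood at 4067 and 5117 counts against 2604 and 2788 (log2 difference -0.77 ± 0.13 SE, edgeR adjusted p = 0.106). JAZ6 stood at 1645 and 1901 counts against 1075 and 1120.

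The rapid stress transcription factors, which respond quickly to handling or wounding, were highest in 1 library. Of 10 tested genes edgeR and DESeq2 called 0, and 0 had an unadjusted edgeR p below 0.05, with genotype as the only term. With the replicate number as a block, edgeR called 5 of the 10 lower, and 337 of all 7981 genes. The labels do not say that a replicate number marks a shared batch. ERF109 (AT4G34410) stood at 220 and 1193 counts in Col-0 against 8.3 and 189 in ndx1-4. NAC019 stood at 1509 and 2251 counts against 1028 and 1471, and MYB44 at 2260 and 4057 against 1682 and 2173. Col-0 replicate 2 was the highest library for all 3 genes. The median level of this list lay 0.868 (log2) above the gene means in Col-0 replicate 2 and 0.163 below in Col-0 replicate 1. Glucosinolate genes lay 0.697, jasmonate genes 0.425 and flavonoid genes 0.327 above in the same library. In ndx1-4, replicate 2 was also above replicate 1 for the stress (-0.557 and -0.046 in replicates 1 and 2), jasmonate (-0.355 and -0.126) and glucosinolate lists (-0.639 and -0.361). For flavonoid genes it was not (-0.227 and -0.341). Leaving out Col-0 replicate 2 brought the median log2 difference from -0.71 to -0.13 for the stress list, from -0.55 to -0.28 for jasmonate, from -0.44 to -0.28 for flavonoid and from -1.03 to -0.70 for glucosinolate genes. Of the stress genes 7 of 10, and of the jasmonate genes 9 of 21, then had a log2 difference smaller in size by over 1.5 times, against 2 of 11 flavonoid and 5 of 22 glucosinolate genes. The lipoxygenase gene LOX3 went from -1.96 to -0.70, and LOX4, at 284 and 963 counts in Col-0 against 106 and 204 in ndx1-4, stood at -0.87 without that library, while the repressor genes JAZ5, JAZ1 and JAZ8 went from -1.82 to -0.62, from -1.02 to -0.28 and from -1.76 to -0.80. MYB51, a regulator of indolic glucosinolates, went from -1.08 to 0.07 and so changed sign, and ERF109 went from -2.81 to -1.14. Smaller moves were seen for LOX2 (-0.77 to -0.59), BAN (-3.07 to -2.67) and CYP83A1 (-2.49 to -2.40).

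**Figure D3:**
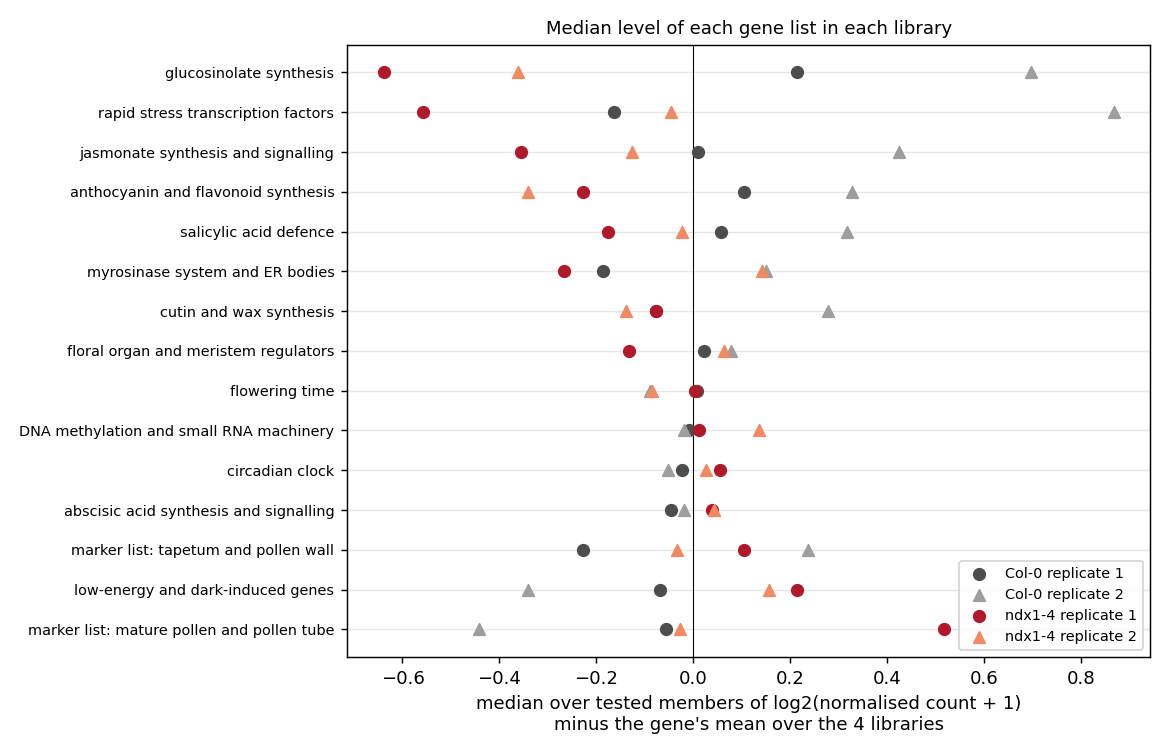
Median over the tested members of each list of the log2 normalised count plus 1, relative to each gene's mean over the 4 libraries. Col-0 replicate 2 lies at 0.868 for rapid stress transcription factors and at 0.425 for jasmonate genes, away from Col-0 replicate 1.

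Low-energy and dark-induced genes are known to be expressed when sugar is short. Of 11 tested genes edgeR called 0, DESeq2 called 3 higher (2.23% of all tested genes) and 0 lower, and at an unadjusted edgeR p below 0.05 there were 7 higher (10.6% of all) and 0 lower. Above both Col-0 libraries stood 8 of the 11, against 27.9% of all tested genes, and the median was 0.33. The median level of this list lay 0.34 (log2) below the gene means in Col-0 replicate 2 and 0.068 below in Col-0 replicate 1. In ndx1-4 replicates 1 and 2 it lay 0.215 and 0.157 above. DRM1, known from dormant buds, stood at 26305 and 23811 counts in Col-0 against 38098 and 39581 in ndx1-4, and DIN10 at 31108 and 27101 against 37872 and 35525. ASN1 (AT3G47340), asparagine synthetase, stood at 18107 and 15765 counts against 32322 and 31004 (log2 difference 0.90 ± 0.12 SE, edgeR adjusted p = 0.0777). SEN1 stood at 4714 and 3065 counts against 7960 and 8390. The leucine degradation genes MCCA and IVD, held only through the genotype list, had log2 differences of 0.78 and 0.61.

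Mature pollen and tapetum markers were examined as signs of the stage and makeup of the inflorescences. Of 23 tested markers of mature pollen edgeR called 0, DESeq2 called 3 higher (2.23% of all tested genes) and 0 lower, and at an unadjusted edgeR p below 0.05 there were 5 higher (10.6% of all) and 0 lower. Above both Col-0 libraries stood 11 of the 23 (27.9% of all), and 21 had a positive log2 difference, as did 4151 of all 7981 genes. The markers summed to 40650 and 35641 counts in Col-0 and to 62736 and 48541 in ndx1-4. VGD1, a pectin methylesterase of the pollen tube, stood at 11293 and 10179 counts against 17066 and 12198, and LRX10 (AT2G15880), a leucine-rich repeat extensin, at 8548 and 7107 against 13649 and 14360. ndx1-4 replicate 1 was the higher ndx1-4 library for VGD1 but not for LRX10. The median level of the pollen list lay 0.517 (log2) above the gene means in ndx1-4 replicate 1 and 0.442 below in Col-0 replicate 2. It lay 0.057 below in Col-0 replicate 1 and 0.028 below in ndx1-4 replicate 2, so these 2 libraries were nearly level. Of 27 tested tapetum markers edgeR called 0, DESeq2 called 2 higher and 0 lower, and 5 were higher and 0 lower at an unadjusted edgeR p below 0.05, against the same shares of all genes. Their sums were 46423 and 69752 counts in Col-0 against 66220 and 58934 in ndx1-4. The part of pollen content in the other differences was not tested.

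Floral organ and meristem regulators set the identity of the whorls. Of 25 tested genes edgeR called 0, DESeq2 called 1 lower and 0 higher, and at an unadjusted edgeR p below 0.05 there were 5 higher and 3 lower (10.6% and 8.68% of all). By DESeq2, 1.89% of all tested genes were lower and 2.23% higher. SEP3, a cofactor of all organ identity programmes, stood at 2363 and 2449 counts in Col-0 against 2111 and 2346 in ndx1-4, and PI, of petals and stamens, at 1844 and 1939 against 2271 and 2286. STK (AT4G09960), the ovule identity gene, stood at 845 and 791 counts against 340 and 514 (log2 difference -0.93 ± 0.21 SE, edgeR adjusted p = 0.134). Of 8 tested genes of stamen and petal maturation TPS21 was called lower (0.0877% of all tested genes) and none higher. A positive log2 difference was seen for 6 of these 8, and for 4151 of all 7981 genes.

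MAF4 (AT5G65070) and MAF5 (AT5G65080) encode relatives of FLC that repress flowering, and lie next to each other on chromosome 5. MAF4 stood at 45 and 45 counts in Col-0 against 353 and 415 in ndx1-4, and MAF5 at 56 and 33 against 561 and 529. Both were held only through the genotype list, with log2 differences of 3.08 and 3.64 and no test, and reads from such close copies can be exchanged. The florigen gene FT (AT1G65480) stood at 166 and 231 counts against 34 and 70 (log2 difference -1.92 ± 0.40 SE, edgeR adjusted p = 0.126). VIN3, a PHD finger protein of vernalization, stood at 71 and 57 counts against 167 and 164. SPL3 stood at 5172 and 4533 counts against 5073 and 4546 and SPL9 at 1124 and 1252 against 1140 and 1040, so both overlapped. Of 9 tested flowering time genes edgeR called 0, DESeq2 called 1 lower and 0 higher, and 2 were higher and 1 lower at an unadjusted edgeR p below 0.05. Shares of all tested genes were 1.89% lower and 2.23% higher by DESeq2, and 10.6% higher and 8.68% lower unadjusted. FLC was not among the genes joined.

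DNA methylation and small RNA genes were examined because NDX is known from these pathways. Of 11 tested genes of the list edgeR called 0, DESeq2 called 1 higher and 0 lower, and 3 were higher and 1 lower at an unadjusted edgeR p below 0.05. Shares of all tested genes were 10.6% higher and 8.68% lower unadjusted, and 2.23% and 1.89% by DESeq2. FDM2, outside the list, was the called gene of this function. ROS1 (AT2G36490), a DNA glycosylase that removes methylated cytosine, stood at 2056 and 2124 counts in Col-0 against 3058 and 3250 in ndx1-4 (log2 difference 0.59 ± 0.08 SE, edgeR adjusted p = 0.0777). NRPE1, the largest subunit of RNA polymerase V, stood at 833 and 948 counts against 1146 and 1305. NRPE3B, a further polymerase subunit gene, stood at 262 and 212 counts against 462 and 484. CRH1, a MORC-type ATPase gene with no test, stood at 73 and 53 against 257 and 301. Like FDM2, NRPE3B and CRH1 lay outside the list. AGO9, an Argonaute of ovules, overlapped at 5186 and 4899 against 4135 and 5801. The chromomethylase gene CMT3 lay lower, at 948 and 899 counts in Col-0 against 749 and 823 in ndx1-4. So did the chromatin remodeling gene CLSY3, at 1468 and 1445 against 1011 and 1407. Within the list 6 log2 differences were positive and 5 negative, with a median of 0.05. Of the Polycomb list, 4 genes were tested and 0 called by edgeR and by DESeq2, with 1 higher and 0 lower at an unadjusted edgeR p below 0.05. All 4 had a positive log2 difference, as did 4151 of all 7981 genes.

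The other lists had no call by edgeR. Shares of all tested genes for these counts were 10.6% higher and 8.68% lower unadjusted, 2.23% and 1.89% by DESeq2, and 27.9% above and 25.6% below both Col-0 libraries. Cutin and wax synthesis had 19 tested genes with 4 lower and 0 higher at an unadjusted edgeR p below 0.05, 3 lower and 0 higher by DESeq2, and a median of -0.16. The median level of this list lay 0.277 (log2) above the gene means in Col-0 replicate 2. It lay 0.077 below in both Col-0 replicate 1 and ndx1-4 replicate 1, and 0.138 below in ndx1-4 replicate 2. Of 21 circadian clock genes 5 were higher and 1 lower at an unadjusted p below 0.05, DESeq2 called 1 lower, and 11 stood above both Col-0 libraries, against 27.9% of all. For abscisic acid (16 tested) the unadjusted counts were 1 higher and 1 lower, for salicylic acid defence (8 tested) 0 higher and 1 lower, and for cytosolic heat shock proteins (5 tested) 1 higher and 1 lower, and DESeq2 called 0 in each. Of 3 tested genes of endoplasmic reticulum folding 1 was lower at an unadjusted p below 0.05 and by DESeq2. The 2 tested genes of mitosis and DNA replication and the 4 tested root markers had 0 at an unadjusted p below 0.05 and 0 by DESeq2.

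**Figure D4:**
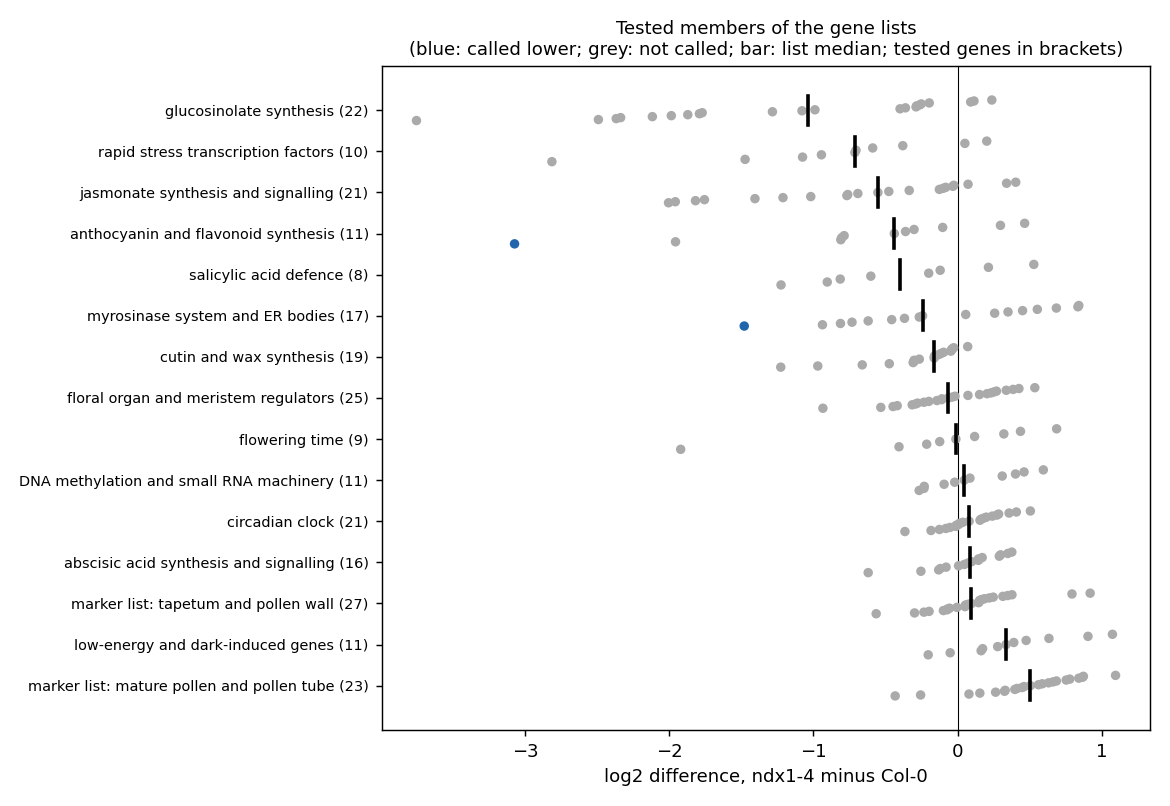
Log2 difference, ndx1-4 minus Col-0, of every tested member of 15 lists, with the list median as a bar and called genes in blue. Medians run from -1.03 for glucosinolate synthesis to 0.50 for mature pollen markers, and the called members among these 15 lists are BAN and JAL23.

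Of the families defined by words in the product description, F-box genes encode the substrate receptors of ubiquitin ligases. Of 44 tested F-box genes 2 were called higher (AT1G27580 and AT4G22390) and 0 lower, against 0.288% and 0.0877% of all tested genes. Above both Col-0 libraries stood 27 and below them 5, against 27.9% and 25.6% of all, and the median was 0.22. At an unadjusted edgeR p below 0.05 there were 14 higher and 2 lower, against 10.6% and 8.68% of all tested genes, and DESeq2 called 4 higher and 0 lower, against 2.23% and 1.89%. The genotype list held 19 F-box genes, all with a positive log2 difference, and 269 of all 414 genes on that list had one. Of the 19, 16 were held only through that list and so were chosen on this contrast. AT4G13985 (FBD1) stood at 6.9 and 6.7 counts in Col-0 against 199 and 244 in ndx1-4, and AT5G42460 at 57 and 63 against 407 and 465.

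**Figure D5:**
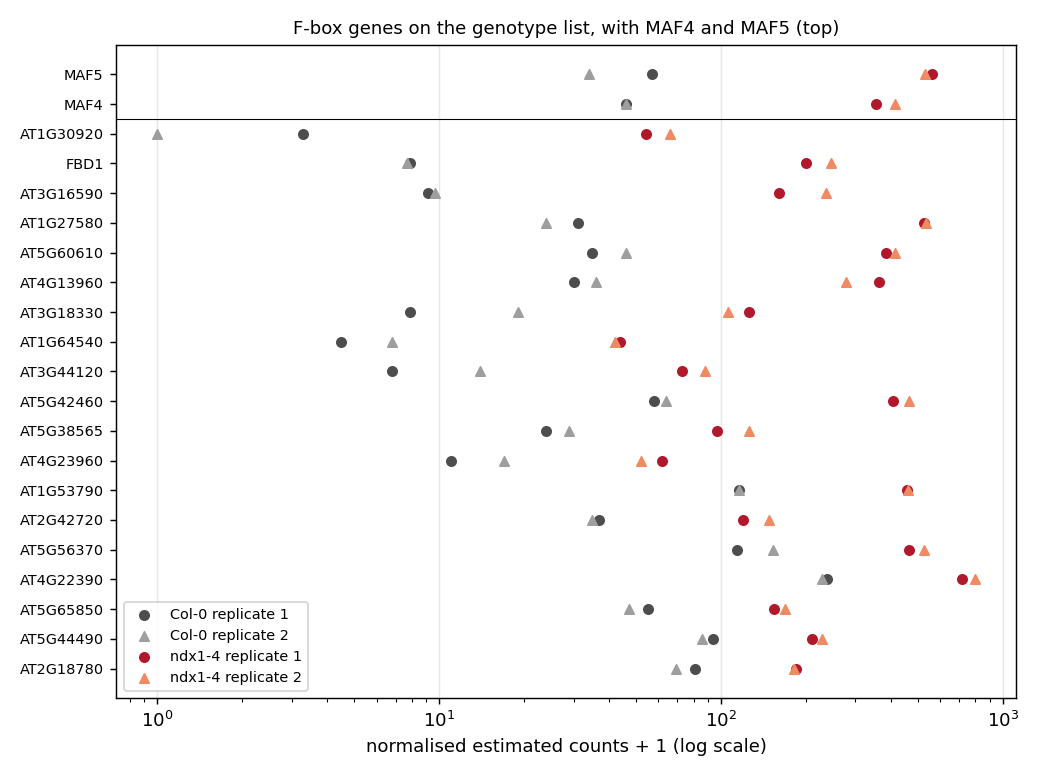
Normalised estimated counts plus 1 (log scale) of the 19 F-box genes on the genotype list, with MAF4 and MAF5 above, in each library. FBD1 stands at 6.9 and 6.7 counts in Col-0 and at 199 and 244 in ndx1-4.

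Cystatins inhibit cysteine proteases. Of 8 tested genes AT5G17090 was called higher and none lower, with 5 above both Col-0 libraries, 1 below, and a median of 0.62. Glycine-rich proteins gave 3 called higher of 27 tested and 0 lower, while the median of the family was -0.06. Of all tested genes 27.9% stood above and 25.6% below both Col-0 libraries, and edgeR called 0.288% higher and 0.0877% lower. Of 129 cytosolic ribosomal protein genes 60 stood below both Col-0 libraries and 8 above, with a median of -0.10, and of 51 photosystem genes 22 stood below and 6 above, with a median of -0.09. Neither family had a call by edgeR at an adjusted p below 0.05, and at an unadjusted p below 0.05 there were 19 lower and 0 higher ribosomal genes, and 8 lower and 3 higher photosystem genes, against 8.68% lower and 10.6% higher of all. DESeq2 called 0 ribosomal genes, and 3 photosystem genes lower with 1 higher, against 1.89% lower and 2.23% higher of all tested genes. The words that defined the photosystem family missed AT1G29920, a chlorophyll A/B-binding protein gene. It stood at 36697 and 33917 counts in Col-0 against 19897 and 16878 in ndx1-4 (log2 difference -0.94, edgeR adjusted p = 0.0816). The lowest log2 difference within the family was -0.63. GDSL lipases gave 1 called lower of 55 tested, 0 higher, and a median of -0.22. Of 26 tested subtilase genes 12 stood below both Col-0 libraries and 4 above, and of 168 genes of defensins and small cysteine-rich peptides 73 stood below and 36 above. Of 82 tested homeobox genes 32 stood above and 10 below, and of 21 tested MATH or TRAF domain genes 10 stood above and 2 below, beside the shares of 27.9% above and 25.6% below given for all genes. edgeR called 0 genes in these 4 families. At an unadjusted p below 0.05 there were 2 higher and 10 lower subtilase, 13 higher and 29 lower small peptide, 12 higher and 6 lower homeobox, and 6 higher and 0 lower MATH genes. DESeq2 called 0 subtilase genes higher and 3 lower, and 2 small peptide genes higher and 5 lower. It called 1 homeobox and 3 MATH genes higher and 0 lower in both, against 2.23% higher and 1.89% lower of all tested genes. Of the product descriptions shared word for word by at least 10 tested genes, glycine-rich protein had 1 of 10 genes called higher, the Sec14p-like group 1 of 12 (COW1), putative membrane lipoproteins 1 of 19 (EDA8) and uncharacterized proteins 3 of 365. Called lower were 1 of 33 invertase or pectin methylesterase inhibitors (AT4G15750), 1 of 43 GDSL-like lipases (AT1G54020) and 1 of 50 Rossmann-fold proteins (BAN).

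The genes held only through the genotype list reached the largest separations. MRD1 (AT1G53480) stood at 686 and 675 counts in Col-0 and at 0 counts in both ndx1-4 libraries, at least 236-fold lower against a floor of 3 counts per library. HEI10 (AT1G53490), a ligase needed for meiotic crossovers, overlaps it on the opposite strand, and stood at 296 and 303 counts against 56 and 94. AT1G07887, a noncoding RNA gene, lies wholly inside MRD1 on the strand of HEI10 and overlaps both, and stood at 689 and 503 counts against 3.1 and 3.5. Counting was not described as using strand, so reads from the stretch these genes share may not be told apart. HEI10 runs on to position 19966952, beyond the end of MRD1 at 19964712. Whether the 3 values are separate losses was not tested. AT1G64795, an uncharacterized gene, stood at 1.2 and 0 counts in Col-0 against 347 and 348 in ndx1-4. AT3G29580, a MATH domain gene, stood at 5.8 and 1.0 counts against 83 and 108, and AT5G17080, next to the cystatin gene AT5G17090, at 2.3 and 4.8 against 96 and 122.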

How the data were processed

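Per the labels, mRNA was sequenced as single-end reads, and the authors quantified it with Salmon, with GC correction, against Araport11 genes (TAIR10 assembly) and compared groups with DESeq2. Their tables hold genes at an adjusted p below 0.01. The count columns the authors deposited are estimated counts rounded to whole numbers, and the deposited FPKM served only to recover the library scaling, as the median ratio of counts to FPKM over 314 genes with at least 50 counts (1, 1.20, 1.12 and 1.31 for Col-0 replicates 1 and 2 and ndx1-4 replicates 1 and 2). The authors' fold changes and p-values, the transposable element tables and 8 columns of seedling samples were not used. Genes averaging 10 counts or more were fitted with edgeR 4.0.16 (R 4.3.3), with genotype as the only term, and DESeq2 1.42.0 was an alternative. Adjusted p-values cover genes of both tissue tables, and calls are at 0.05. The fit was also run on simulated counts, whose outcome is not given here and is not used as support. Named by rule were NDX, the 10 highest and 10 lowest called genes and the 5 highest and 5 lowest genes held only through the genotype list, all with a mean of 50 counts and no overlap, and in each list described up to 3 called members per direction or else the 2 with the most counts. For product descriptions shared by at least 10 tested genes, those with the highest share called were taken. All other genes were named after their values were seen. Members, lists and tests were chosen with earlier results of these data known. Short letter codes in family patterns were matched in capitals at a word start. Alternatives were other scalings, no count filter, other thresholds, a replicate block and each library left out. Precision is limited by 2 libraries per genotype, the SE values include the spread between libraries, and the floor of 3 counts covers counting error only. Tables were handled with Python 3.11.15 and pandas 2.3.3.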

Additional observations from a re-analysis of the deposited data

How the results depend on the processing

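The counts of called genes depended on the tool and on the libraries. The main count of genes differing between ndx1-4 and Col-0 flowers was 30 (23 higher, 7 lower). It was 30 (23 and 7) under TMM scaling and with genes of both tissue tables only, 36 (27 and 9) with no filter on low counts, 46 (31 and 15) with total count scaling and 329 (178 and 151) with DESeq2, which called all 30. At an adjusted p below 0.01 it was 7 (7 and 0), and below 0.10 it was 126 (80 and 46). With each library left out in turn the count ran from 0 to 14, from 0 to 11 higher and from 0 to 3 lower, and it was 0 without ndx1-4 replicate 1 or without ndx1-4 replicate 2, where the smallest adjusted p was 0.0613 and 0.0854 and 995 and 1167 genes had an unadjusted p below 0.05. The labels number the replicates but do not say that a number marks a shared batch. With the replicate number as a block, edgeR called 928 genes (591 and 337), including all 30, and it called 5 of 10 rapid stress transcription factors, 10 of 21 jasmonate and 11 of 22 glucosinolate genes lower and 14 of 23 pollen markers higher. Deviations of same-numbered libraries from their group means correlated at 0.43 over 7216 genes. Medians of lists moved by more than the spread between replicates in 36 fits and by less in 174. Of genes not called, the log2 difference of AT2G33810 (SPL3) changed sign when single libraries were left out, with a range from -0.1051 to 0.0853, and so did the log2 difference of AT5G21150 (AGO9), with a range from -0.2861 to 0.2021. The cause of these changes was not tested.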

Other observations

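Genes that differed between genotypes lay close to neighbours with similar counts in both on chromosome 4. AT4G00250, a DNA-binding storekeeper-related gene held only through the genotype list, stood at 31 and 34 counts in Col-0 against 587 and 635 in ndx1-4, while its relatives AT4G00238 and AT4G00270 on either side had log2 differences of 0.10 and 0.13, with edgeR adjusted p values of 0.60 and 0.453. EDA8 (log2 difference 1.82) and FDM2 lay further along, and AT4G00390, another member of the group beside FDM2, stood at 52 and 53 counts against 148 and 247. AT3G11160, called higher, and its neighbour AT3G11165, which was not tested, had log2 differences of 2.76 and 3.64.

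HPD and the homogentisate dioxygenase gene HGO (AT5G54080), both of tyrosine breakdown and picked after their values were seen, had log2 differences of 0.68 (edgeR adjusted p = 0.06) and 0.81, the second with no test. The cystatin gene CYS6 (AT3G12490) and AT1G03710 had log2 differences of 0.89 and 0.78, with edgeR adjusted p values of 0.0761 and 0.0777, and AT5G05040, not tested, was at 2.79. The catalase gene CAT3 (AT1G20620) was at 0.62 with an edgeR adjusted p of 0.138.

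AT1G17820 stood at 0 counts in 3 libraries and at 407 in ndx1-4 replicate 1. It stood on the genotype list and was not tested.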
